A study of Salmo salar with 30 samples.

Results

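Family X22 was a full-sib family of Atlantic salmon (Salmo salar) from a wild Little River dam, from Newfoundland, and a farmed sire of the Saint John River strain. For incubation it was split between a container with gravel (the enriched environment) and a container without substrate (the unenriched environment). The 10 juveniles described here, 5 from each environment, were chosen by the family given in the sample labels and made up 10 of the 30 juveniles of the study. All 10 were sampled at emergence, the stage at which fry leave the gravel and start to feed, which was judged in the enriched containers, and RNA was taken from the whole severed head, which held brain, eyes and heart. Families X11 (wild Little River dam and sire) and X35 (wild Little River dam, farmed sire) were reared by the same design, with 5 juveniles per environment in each. Each family had 1 container per environment, so the container and the environment cannot be told apart, and the spread between juveniles is a spread between siblings of 1 container.

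In nature salmon embryos and alevins develop buried in gravel, where they hold their position with little swimming while they live on the yolk. The head at emergence is a growing tissue: neurons and glia still differentiate, muscle fibres and cartilage are laid down, and the extracellular matrix is rebuilt by secreted proteases and their inhibitors. Hatchery containers without substrate leave the fish in open water during this period.

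Each array carried the RNA of 1 juvenile in Cy5 and a pooled reference of all juveniles in Cy3, so a value is the log2 ratio of a juvenile to that pool, and a difference is the enriched mean minus the unenriched mean. After loess normalization, 21136 probes were kept, of which 19714 were measured on all 10 arrays of family X22. Gene names were available for 3073 of them. The names come from the lists of responsive genes in the study's supplement, which hold 809 of the kept probes for the comparison over all families, 3441 for family X11 and 17 for family X22. These lists were selected on these same juveniles or on their pooled comparison, so named probes and gene lists are not independent evidence of a direction. Juveniles are numbered 1 to 5 within an environment as in the labels.

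Signal quality was similar across the 10 arrays, with exceptions. Between 49 and 53.7% of spots exceeded the background limit in Cy3 and between 35.1 and 42.9% in Cy5, and 13256 probes were above the Cy5 limit on all 10 arrays. Enriched juvenile 5 had the lowest median Cy5 signal, 57, and the most missing values, 3.01%, whereas unenriched juvenile 3 had the highest signal, 831.5. Arrays correlated with a median r of 0.43 within an environment and 0.37 between environments, and the lowest value, 0.069, was between unenriched juvenile 3 and enriched juvenile 5. Over all 30 arrays the lowest correlation was -0.37, and the direction of the ratio was kept because the methods state the dyes.

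Some juveniles stood apart from their siblings. The first principal component carried 32.4% of the variance and separated enriched juvenile 5 (score 84.1) from the rest, with unenriched juvenile 3 at the other end (-40.7). Component 2, with 16% of the variance, separated enriched juvenile 1 (55.8). On component 1 the unenriched juveniles lay between -40.7 and -5 and the enriched juveniles between -15.2 and 84.1, so the environments overlapped. Slide 1 held juveniles 1 and 2 of both environments. Slide 2 held unenriched juveniles 3 to 5 and enriched juvenile 3. Enriched juveniles 4 and 5 were each the only X22 array on their slide. The differences within slides 1 and 2 are given beside many of the results, and values within slide 2 rest on 1 enriched juvenile. In a fit of the X22 arrays with slide as a fixed block, enriched juveniles 4 and 5 add nothing to the difference between environments.

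**Figure D1:**
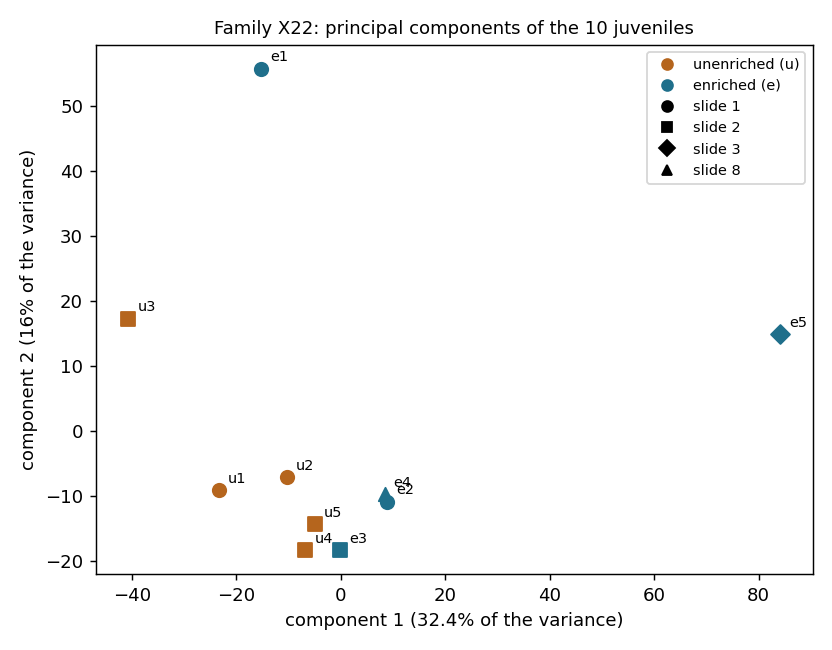
Scores of the 10 juveniles of family X22 on principal components 1 (x axis, 32.4% of the variance) and 2 (y axis, 16%), computed on 19714 probes. Colour gives the environment and marker shape the slide, and enriched juveniles 5 and 1 and unenriched juvenile 3 lie away from the others.

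The labelled tissue, a whole head, was checked against genes that define its parts. Above the Cy5 limit on all 10 arrays were 8 of 11 probes of neurons (SNAP-25, synapsins, neurofilaments, stathmins), the single probe of myelin basic protein, 5 of 6 of ependymin from the meninges, 2 of 4 of lens crystallins, both of photoreceptors, 7 of 8 of heart, 8 of 9 of skeletal muscle, all 3 of haemoglobin and all 5 of epidermis. None of these probes passed the false discovery rate (FDR) between environments. The paper describes C152R152, the ependymin probe not above the limit on all 10 arrays, as a potential chimera. Median differences were 0.17 for neurons, 0.12 for meninges, -0.50 for heart (range -1.79 to -0.32), -0.33 for skeletal muscle, -0.05 for blood and 0.30 for epidermis, and the part of tissue makeup in the results below was not tested. Haemoglobin C191R109 lay at the highest Cy5 signal among these markers, about 65500, on all 10 arrays. Haemoglobin C252R104 and type II keratin E3 had their median there. Differences of probes at this ceiling may be understated.

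The first question was how many transcripts differed between siblings reared with and without gravel. At an FDR of 5%, 1 probe of 21136 (0.00473%) passed in limma, and it was higher in the enriched juveniles. At an unadjusted p under 0.05 there were 2138 probes (10.1%), of which 879 (4.16%) were higher in enriched juveniles and 1259 (5.96%) lower. Among the probes measured on all 10 arrays, the environments did not overlap for 416, of which 178 (0.903%) were higher in enriched juveniles and the others (1.21%) lower. Over all probes the median difference was -0.002 on the log2 scale, 50 probes were higher by more than 1 and 207 were lower by more than 1. In the same fit of their own arrays, 2716 probes passed in family X11 and 0 in family X35, with 6547 and 1072 at an unadjusted p under 0.05. The median size of a difference was 0.19 in X22, 0.28 in X11 and 0.16 in X35. SAM, the permutation method used in the study, called 5 probes in X22 among the 19714 measured on all 10 arrays. Only 10 of the study's 17 probes for X22 are among these 19714. With slide as a fixed block in limma, the count at an unadjusted p under 0.05 was 1366. The enriched juveniles alone on their slide add nothing to the difference in that fit.

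**Figure D2:**
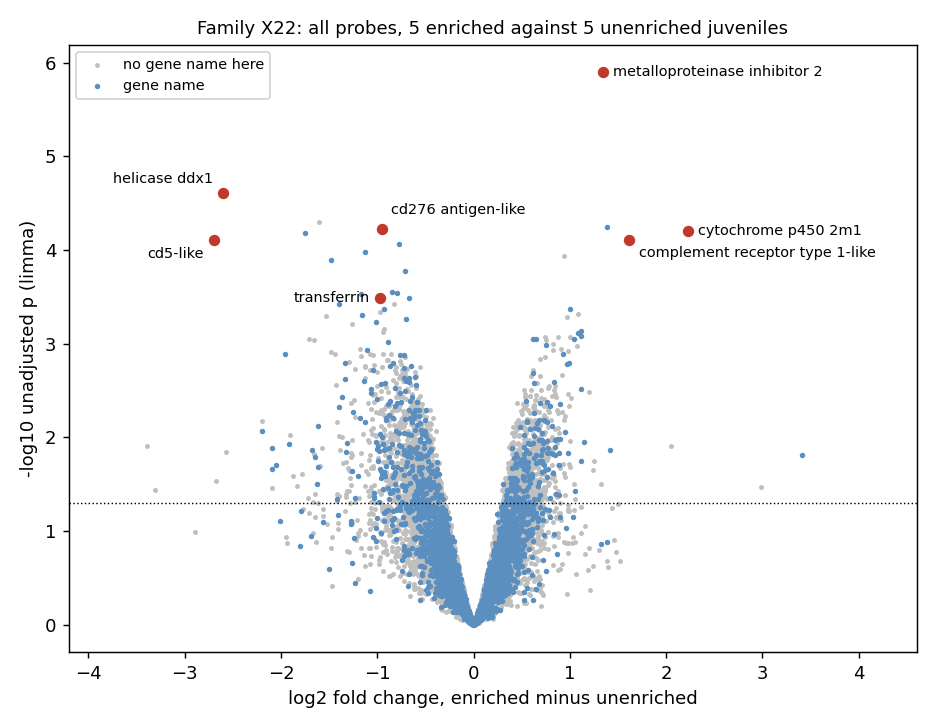
Each point is 1 of 21136 probes, with the log2 fold change between the enriched and unenriched juveniles on the x axis and -log10 of the unadjusted limma p-value on the y axis. Blue points have a gene name, and the dotted line marks 0.05. The probe of metalloproteinase inhibitor 2 stands above all others, and the lower side reaches farther out than the higher side (207 against 50 probes beyond a log2 difference of 1).

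The probe that passed was C211R161, metalloproteinase inhibitor 2 precursor (TIMP2), a secreted protein that blocks the proteases that cut extracellular matrix. Its log2 ratio was -0.50, -0.70, -0.68, -0.74 and -0.09 in unenriched juveniles 1 to 5 and 0.89, 0.88, 0.75, 0.85 and 0.67 in enriched juveniles 1 to 5. The environments did not overlap, and all 5 enriched juveniles lay within a narrow band whereas unenriched juvenile 5 lay above its 4 siblings. TIMP2 rose by 1.35 (SE 0.155) on the log2 scale in the enriched environment, or 2.51-fold as the ratio of the mean unlogged ratios (limma, adjusted p = 0.0267). The difference was 1.49 within slide 1 and 1.25 within slide 2. In family X11 the same probe differed by 1.52 (SE 0.329, limma adjusted p = 0.017) and in family X35 by 0.41 (SE 0.343, limma adjusted p = 0.962).

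The size of the TIMP2 difference stayed between 1.25 and 1.49 in all limma alternatives and within slides, but its call depended on single juveniles and on the processing. It was lost without any one of unenriched juveniles 1 to 4 or of enriched juveniles 1, 2, 4 and 5. The call was also lost without unenriched juvenile 3 and enriched juveniles 1 and 5 together, with slide as a fixed block, in a fit of all 30 arrays, with dim Cy3 spots kept and when the arrays were scaled to one another, and its adjusted p in limma ran from 0.00365 to 0.319 over the alternatives.

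Other probes with the same or a related name did not all share this pattern. C001R030, a second probe named metalloproteinase inhibitor 2 precursor, stood at 0.21, -1.30, -0.72, -0.88 and -0.10 in the unenriched and 0.77, 0.41, 0.71, 0.43 and 0.49 in the enriched juveniles. The environments did not overlap here either, and the difference was 1.12 (SE 0.255, limma adjusted p = 0.43). The third probe of this name, C066R007, had the same mean in both environments (0.31 ± 0.33 (SD, n = 5) enriched and 0.32 ± 0.09 (SD, n = 5) unenriched), with differences of -0.39 within slide 1 and 0.48 within slide 2. In family X11 it differed by 1.15 (limma, adjusted p = 0.00805). The metalloproteinase inhibitor 3-like probe C135R154 was close to the background limit and differed by -0.11 (SE 0.204). Which transcripts of the duplicated salmon genome the probes of 1 name detect was not tested.

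**Figure D3:**
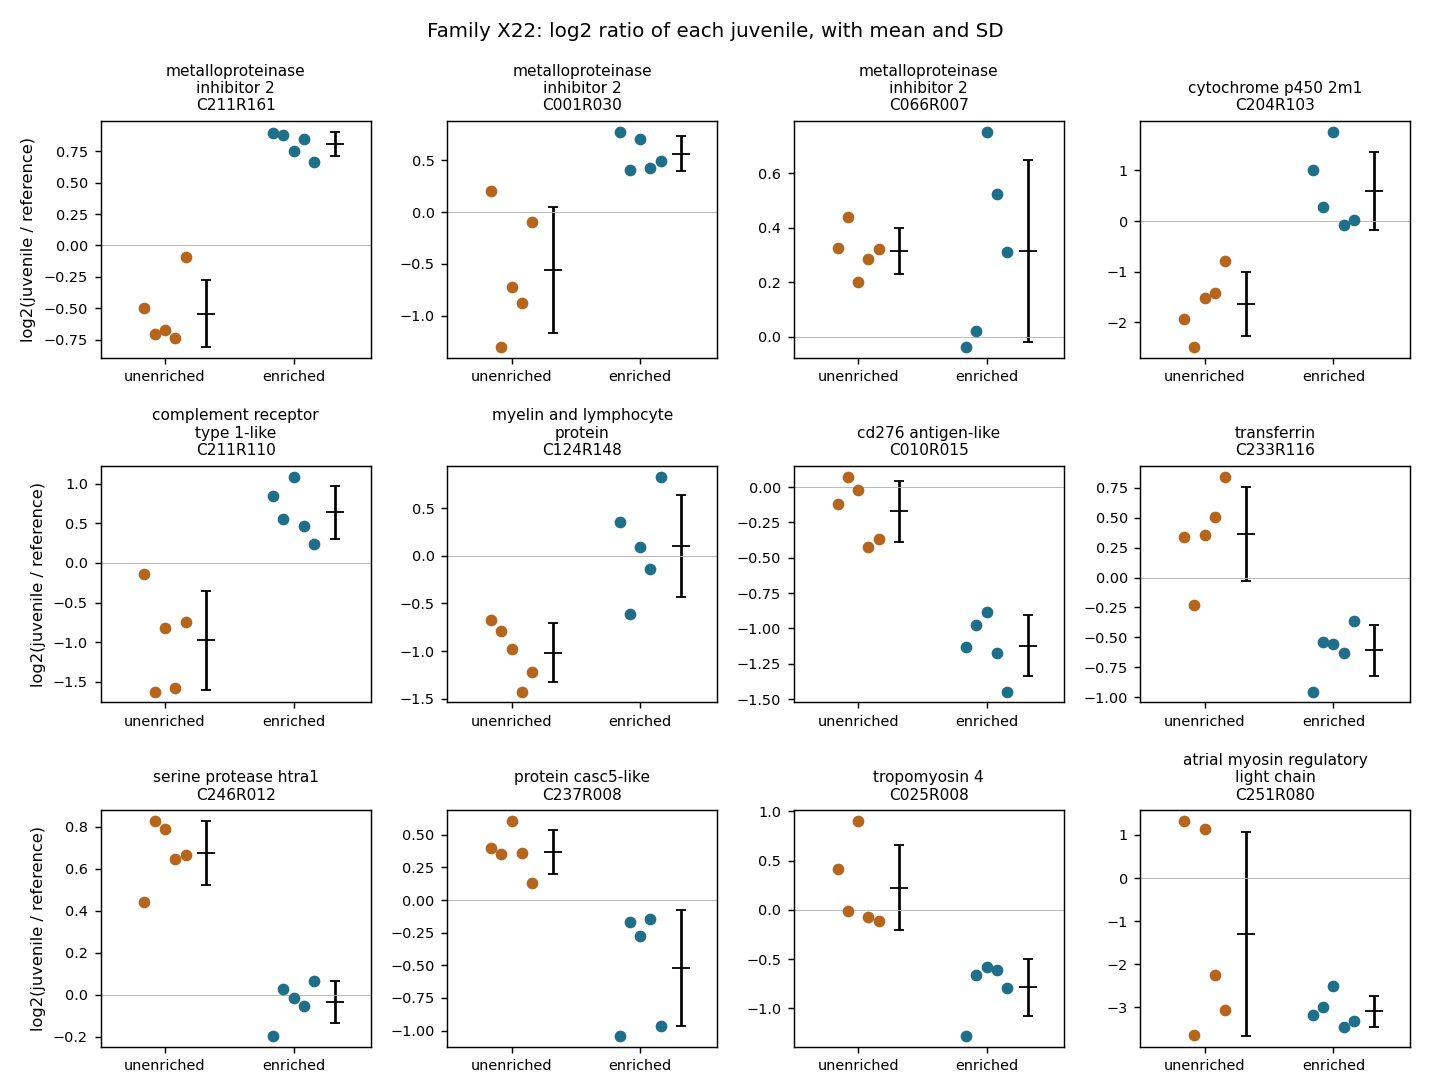
Log2 ratio to the reference (y axis, scale set per panel) of each unenriched (brown) and enriched (blue) juvenile of family X22 for 12 probes, with the mean and SD of 5 juveniles beside the points. The environments do not overlap except at C066R007 and at the atrial myosin regulatory light chain, where unenriched juveniles 1 and 3 lie above 1 and all others below -2.

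Among the other named probes that were higher in the enriched juveniles, none passed the FDR. One of those without overlap was cytochrome P450 2M1 (C204R103), known in rainbow trout as a fatty acid hydroxylase. It was under the Cy5 limit in all unenriched juveniles (-1.93, -2.49, -1.52, -1.42 and -0.79) and above it in 3 of 5 enriched juveniles (1.00, 0.27, 1.76, -0.07 and 0.03). With the dim unenriched signals raised to the limit, enriched juveniles had 2.70-fold higher signal (limma on the log2 ratios, adjusted p = 0.183). Enriched signals under the limit were used as measured, so this fold is not a strict bound. The same probe differed by 2.43 on the log2 scale in X11 (limma, adjusted p = 0.00108) and by 1.58 in X35 (adjusted p = 0.557). A second probe of this name, C172R070, was above the limit on all 10 arrays, overlapped between environments and differed by 0.69 (SE 0.329).

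Complement receptor type 1-like (C211R110), from a family of proteins that restrain complement in mammals, was -0.14, -1.62, -0.82, -1.57 and -0.74 in the unenriched and 0.84, 0.56, 1.09, 0.47 and 0.24 in the enriched juveniles. No unenriched juvenile reached an enriched one, and the difference was 1.62 (SE 0.28, limma adjusted p = 0.183), beside 0.99 in X11 and 1.11 in X35. An uncharacterised protein (C237R040) followed with -0.55, -1.09, -1.07, -0.21 and -0.55 against 0.57, 0.62, 1.37, 0.60 and 0.28, a difference of 1.38 (SE 0.231, limma adjusted p = 0.183). Its differences in X11 and X35 were 1.50 and 1.30.

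Of 2790 named probes measured on all 10 arrays, 39 were higher in enriched juveniles without overlap, beside 0.903% over all probes. Of these, 31 were also detected in at least 3 juveniles of each environment, and their 12 largest differences ran from 0.65 to 1.62. Both probes of myelin and lymphocyte protein (MAL), a proteolipid of myelin and of T cells in mammals, were among them. C124R148 stood at -0.68, -0.79, -0.98, -1.43 and -1.22 in the unenriched and 0.35, -0.61, 0.09, -0.14 and 0.83 in the enriched juveniles, a difference of 1.12 (SE 0.252), and C196R170 differed by 1.04 (SE 0.24). The lowest enriched value of C124R148, in juvenile 2, was close to the highest unenriched value.

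The rest of the 12 came from several functions. The transcription factor SOX-14, which acts in neuron differentiation in the mouse, was higher by 1.08 (SE 0.244), and leucine-rich glioma-inactivated protein 1, a secreted synaptic protein, by 0.71 (SE 0.247). Envoplakin-like (C075R036), a scaffold protein of stratified epithelium, differed by 0.97 (SE 0.243), the ion pump regulator FXYD6 by 0.81 (SE 0.255) and the G subunit of the vacuolar proton pump by 0.76 (SE 0.218). UDP-N-acetylhexosamine pyrophosphorylase-like, which makes the sugar donor of glycoproteins, was 0.12 ± 0.18 (SD, n = 5) in unenriched and 0.77 ± 0.19 (SD, n = 5) in enriched juveniles. All of these had a limma adjusted p of 0.43 to 0.437. The other envoplakin-like probes, C138R056 and C224R065, overlapped between environments and differed by 0.295 (SE 0.224) and 0.375 (SE 0.15).

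On the lower side, the study's own list for family X22 holds 17 probes, which its authors selected on these juveniles with SAM. In the values used here 16 were lower and 1, TIMP2, was higher in enriched juveniles; since the list was chosen on this contrast, these counts are a description. The median of the 17 was -0.95 in X22, -0.11 in X11 and -0.10 in X35. Of the 17, 4 were under the Cy5 limit on all 10 arrays (C065R063, which has no gene name, C118R012, named probable D-lactate mitochondrial-like, shugoshin-like 1 C149R037, named after the protector of centromeric cohesin, and T-cell surface glycoprotein CD5-like C260R032) and are given no fold.

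Several members of this list were well measured. Transferrin (C233R116), the iron carrier of plasma, was 0.34, -0.23, 0.36, 0.51 and 0.84 in the unenriched and -0.95, -0.54, -0.56, -0.63 and -0.36 in the enriched juveniles. The difference was -0.97 (SE 0.198, limma adjusted p = 0.364), with unenriched juvenile 2 nearest to the enriched group but above all 5. Serine protease HTRA1 (C246R012), a secreted protease that acts on matrix proteins, was 0.44, 0.83, 0.79, 0.65 and 0.67 in the unenriched and -0.20, 0.03, -0.01, -0.06 and 0.07 in the enriched juveniles, a difference of -0.71 (SE 0.134, limma adjusted p = 0.254) that was -0.72 within slide 1 and -0.71 within slide 2. Its differences in X11 and X35 were -0.11 and -0.10.

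Outer dense fiber protein 3-like protein 2-like (C109R011), named after a sperm tail protein, was -0.07, 0.30, 0.10, 0.05 and 0.04 against -0.66, -0.88, -0.65, -0.52 and -0.75. Its groups were tight and did not overlap, with a difference of -0.77 (SE 0.135, limma adjusted p = 0.183). CD276 antigen-like (C010R015), a member of the B7 family of immune regulators, was -0.12, 0.07, -0.02, -0.42 and -0.37 against -1.13, -0.98, -0.89, -1.18 and -1.45, a difference of -0.95 (SE 0.16, limma adjusted p = 0.183). It was above the Cy5 limit in all unenriched but only 2 enriched juveniles. These 3 probes (HTRA1, C109R011 and CD276) were among the 5 that SAM called here, with TIMP2 and EH domain-binding protein 1-like protein 1 (C200R070), a membrane traffic protein whose probe was under the Cy5 limit in all enriched juveniles, so no difference is given for it.

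Other named members differed by -2.60 to -0.70 on the log2 scale. B-cell receptor-associated protein 29, a protein of the endoplasmic reticulum, differed by -0.84 (SE 0.169) and CKLF-like MARVEL transmembrane domain-containing protein 7 by -0.80 (SE 0.16). The alpha-2-macroglobulin relative CPAMD8-like differed by -0.70 (SE 0.152). Its probe was above the Cy5 limit in all unenriched but only 2 enriched juveniles. Probes of 3 nuclear proteins were under the limit or not measured in all enriched juveniles and detected in only 1 or 2 unenriched ones. With enriched signals under the limit raised to it, the RNA helicase DDX1 (C173R009) was 3.81-fold lower with gravel. On the same terms RuvB-like 2, an ATPase of chromatin remodelling complexes, was 2.08-fold lower. Transcription termination factor 1-like, named after a factor of ribosomal RNA transcription, was 1.29-fold lower. Most unenriched signals of these probes were also under the limit and were used as measured, so these folds are not lower bounds.

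In all, 65 of 2790 named probes measured on all 10 arrays were lower without overlap, beside 1.21% over all probes. With the same condition on detection 45 remained, transferrin and B-cell receptor-associated protein 29 of that list among them. Their 12 largest differences lay between -1.33 and -0.84. Fast-type myosin-binding protein (C089R008), part of the thick filament, was -0.30, -0.13, 1.06, -0.09 and -0.37 in the unenriched and -1.58, -0.66, -0.51, -1.52 and -2.22 in the enriched juveniles, a difference of -1.33 (SE 0.35). Unenriched juvenile 3 was high and enriched juvenile 5 low. Tropomyosin 4 (C025R008), an actin-filament protein, was 0.41, -0.01, 0.90, -0.07 and -0.11 against -1.28, -0.67, -0.58, -0.61 and -0.79, a difference of -1.01 (SE 0.221, limma adjusted p = 0.414). The others of the 12 were taxilin beta (-1.11), PLAC8-like protein 1 (-1.06), the deubiquitinase USP28-like (-1.0), transferrin, sperm-associated antigen 5 of the mitotic spindle (-0.98), tetratricopeptide repeat protein 40 (-0.93), a magnesium transporter of the SLC41 family (-0.89), the HSP90 co-chaperone CHORDC1-like (-0.87), coagulation factor VIII-like (-0.84) and B-cell receptor-associated protein 29.

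Muscle and heart transcripts were mostly lower in the enriched juveniles, but the list medians depended on single juveniles, most on unenriched juvenile 3. Of 57 probes named after the sarcomere and muscle, 48 were lower and 9 higher, and none passed the FDR. These 57 included 34 of the study's list over all families, selected on these juveniles among others, so the counts are a description. At an unadjusted p under 0.05, 20 of the 57 were lower and 0 higher, beside 5.96% lower and 4.16% higher over all probes. The median was -0.46, beside -0.002 over all probes. The median deviation of the list was -0.06, 0.05, 0.90, 0.15 and -0.07 in unenriched juveniles 1 to 5 and -0.39, -0.03, -0.05, -0.37 and -0.50 in enriched juveniles 1 to 5. Unenriched juvenile 3 was far above all others, and the environments overlapped. Without it 10 probes were lower at an unadjusted p under 0.05, beside 11 without enriched juvenile 5 and 12 without enriched juvenile 1. Leaving out 1 juvenile gave 10 to 21. Without the 3 juveniles that stood apart there were 5, with a median of -0.12. Over all probes, 1259 were lower at that level, 930 without unenriched juvenile 3 and 898 without the 3. Within slide 1 the median was -0.23 and within slide 2 -0.35, and with slide as a fixed block 3 probes were lower at that level.

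The heart was part of the severed head, and in such bulk samples fewer cells of a type and less RNA per cell cannot be told apart. Of 13 heart contractile probes 12 were lower, 2 at an unadjusted p under 0.05, beside 5.96% of all probes, with a median of -0.37. Of the 13, 12 were on the study's list over all families, so these counts are a description as well. The median was -0.19 without unenriched juvenile 3, with 0 probes lower at that level. The count was also 0 without enriched juvenile 4 or 5, and it was 5 without unenriched juvenile 5. The median was -0.12 without the 3 juveniles that stood apart, -0.08 within slide 1 and -0.48 within slide 2. The atrial myosin regulatory light chain (C251R080), a marker of the heart's atrium, was 1.32, -3.66, 1.13, -2.26 and -3.07 in the unenriched and -3.19, -2.99, -2.52, -3.45 and -3.33 in the enriched juveniles. Thus unenriched juveniles 1 and 3 were high and the other 3 lay at the level of the enriched group, and the difference of -1.79 had an SE of 0.869 (limma, adjusted p = 0.509). Myosin light polypeptide 4 (C086R103), the atrial essential light chain in mammals, was 0.81, -5.08, 0.73, -3.49 and -4.28 against -3.46, -3.88, -4.52, -5.03 and -4.46, with the same juveniles high. Cardiac myosin-binding protein (C146R110) and cardiac alpha actin (C153R037) overlapped between environments and had their highest values, 1.25 and 1.64, in unenriched juvenile 3.

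Probes of SMYD1, a methyltransferase needed to build the sarcomere in zebrafish, were lower on average in the enriched juveniles at all 3 probes named here (C013R158, C065R162 and C266R127), with overlap between the environments. C013R158 and C065R162 were above the Cy5 limit in all unenriched and in no enriched juvenile. This pattern held at 10 of 21136 probes, and its reverse at 0. Enriched juveniles 1, 2 and 5 had the lowest shares of spots above that limit (35.1 to 36.6%). The part of array brightness in this pattern was not tested. Among 63 probes annotated to heart development, all from the study's list over all families, 59 were lower, with a median of -0.46. At an unadjusted p under 0.05, 26 were lower, beside 5.96% over all probes. Without unenriched juvenile 3 this count became 12, and the count over all probes went from 1259 to 930. The whole list over all families, 809 probes selected on 30 juveniles that included these 10, had 676 lower and a median of -0.36. Of these, 255 were lower at an unadjusted p under 0.05, beside 5.96% over all probes.

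Most cell cycle probes were lower in the enriched juveniles, as were most probes of the list over all families from which they came. Of 122 probes annotated to the cell cycle, again all from that list, 13 were higher and the others lower, 45 lower and 5 higher at an unadjusted p under 0.05, beside 5.96% lower and 4.16% higher over all probes, and the median was -0.38. The median deviation was 0.25, 0.12, 0.36, 0.09 and 0.08 in unenriched juveniles 1 to 5 and -0.21, -0.07, -0.12, -0.19 and -0.33 in enriched juveniles 1 to 5. Every unenriched juvenile lay above every enriched juvenile. The same held for the whole list over all families, which had 255 of 809 probes lower at an unadjusted p under 0.05 and a median of -0.36. For the cell cycle list the median was -0.29 within slide 1 and -0.33 within slide 2. Without the 3 juveniles that stood apart it was -0.29, with 33 probes lower at an unadjusted p under 0.05. No single probe of the list other than TIMP2, which carries this annotation, passed the FDR.

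Among 40 probes named after mitosis and chromosome segregation, 32 were lower, with a median of -0.37. At an unadjusted p under 0.05, 16 were lower and none higher, beside 5.96% and 4.16% over all probes. The list medians were -0.41 in X11 and -0.47 in X35. Of the 40 probes, 29 were on the study's list over all families and 20 on its X11 list. Those lists were selected on these juveniles, so the shared direction of the families is a description. CASC5-like (C237R008), a kinetochore scaffold, was 0.40, 0.35, 0.60, 0.36 and 0.13 in the unenriched and -1.04, -0.17, -0.28, -0.14 and -0.96 in the enriched juveniles, a difference of -0.89 (SE 0.207, limma adjusted p = 0.43). Enriched juveniles 1 and 5 were lowest, and the groups did not overlap. ESCO2-like, which acetylates cohesin in S phase, differed by -0.73 (SE 0.176) and condensin-2 subunit G2 by -0.49 (SE 0.146), each without overlap. The condensin-2 probe was above the Cy5 limit in all unenriched but only 1 enriched juvenile. Kinesin KIF2C was under the Cy5 limit in all enriched juveniles, so no difference is given for it.

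For DNA replication 14 of 18 probes were lower, 6 at an unadjusted p under 0.05, beside 5.96% of all probes. Of the 18, 11 were on the study's list over all families, so these counts are a description. The median of the 18, -0.29, was -0.21 within slide 1 and -0.18 within slide 2. The helicase subunit MCM3 (C097R015) was 0.38, 0.16, 0.12, 0.09 and 0.20 against -0.30, -0.48, -0.02, -0.30 and -0.86, a difference of -0.58 (SE 0.166, limma adjusted p = 0.43) without overlap. Within slide 1 the MCM3 difference was -0.66 and within slide 2 -0.16. The large subunit of ribonucleotide reductase, which makes DNA precursors, differed by -0.70 (SE 0.186), with overlap in 1 pair of juveniles near -0.1. In family X11 these probes differed by 0.04 and -0.04, and in X35 by -0.43 and -0.34. Neither difference between X22 and X11 passed the FDR (limma, adjusted p = 0.141 and 0.146).

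**Figure D4:**
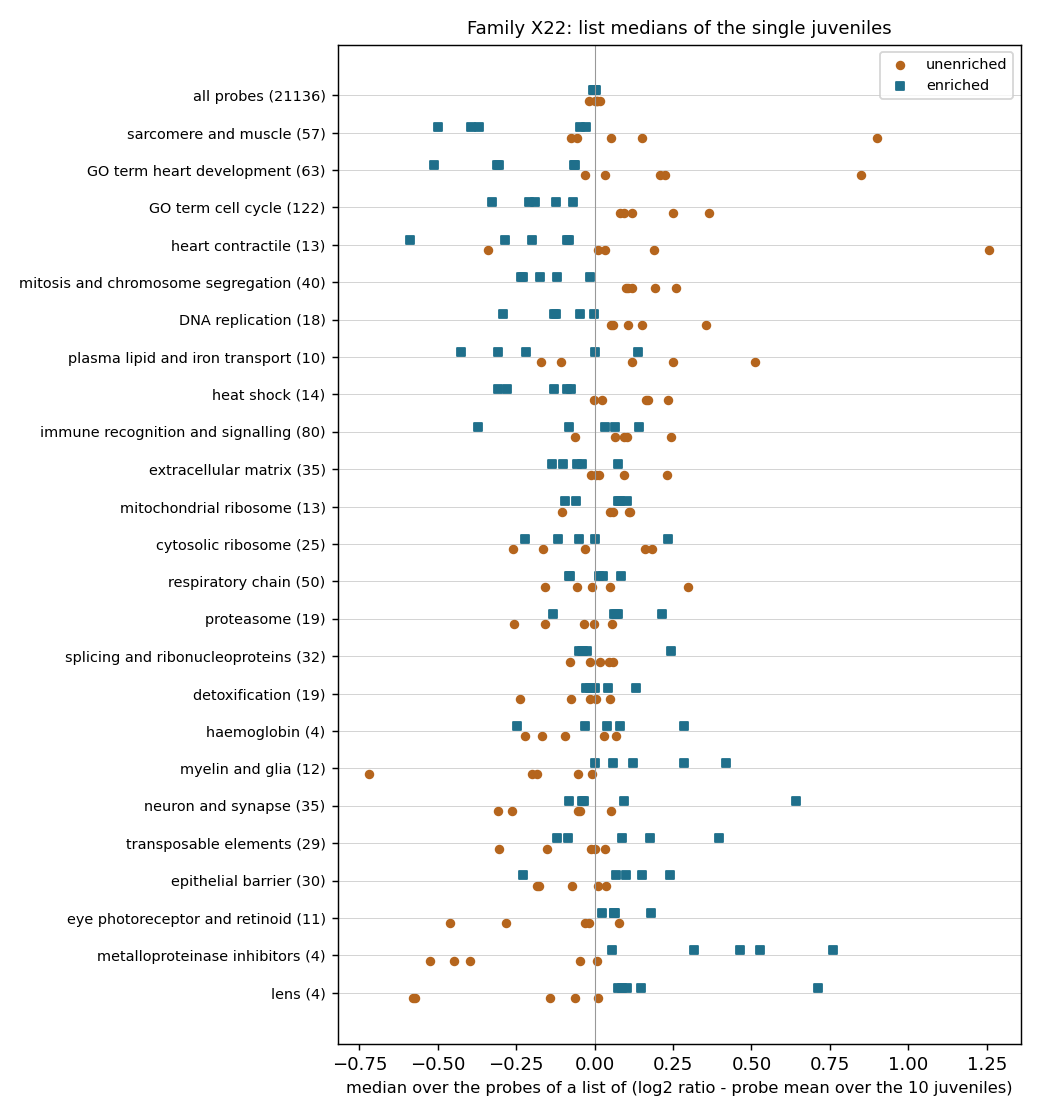
Median over the probes of each list (number of probes in parentheses) of the log2 ratio minus the probe's mean over the 10 juveniles (x axis), with 1 point per unenriched (brown circles) and enriched (blue squares) juvenile. The environments are apart for the cell cycle, mitosis, replication, heart development, heat shock, myelin, metalloproteinase inhibitor and lens lists, and unenriched juvenile 3 is the far point of the muscle lists at 0.90 and 1.26.

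Brain, eye and epithelium lists had small positive medians. Of 35 neuron and synapse probes 29 were higher, 2 at an unadjusted p under 0.05, beside 4.16% over all probes, and none lower, and the median was 0.19; without the 3 juveniles that stood apart it was 0.02, and enriched juvenile 1 alone lay at 0.64. Among 12 myelin and glia probes 11 were higher, with a median of 0.15, and only the 2 MAL probes reached an unadjusted p under 0.05. Myelin basic protein (C124R145) was -0.12 ± 0.21 (SD, n = 5) in the unenriched and -0.09 ± 0.24 (SD, n = 5) in the enriched juveniles. The only lower probe of that list was C152R152, first annotated as ependymin-1, which the paper describes as a potential chimera. It differed by -0.41, was above the Cy5 limit on 1 array only and was incompletely measured. The other ependymin probes differed by 0.02 to 0.47, all with overlap.

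The lens list held 4 crystallin probes with a median of 0.58, beside -0.60 in X11 and -0.295 in X35. Of the 4, 3 were on the study's X11 list, so the X11 median was shaped by that selection. Within slide 2 the median in X22 was 0.26. Gamma-crystallin M2-like (C086R033), a structural protein of lens fibres, was -0.37, 0.40, -0.19, -0.10 and -0.79 in the unenriched and 0.55, 0.80, 0.55, 0.22 and 1.01 in the enriched juveniles. Only unenriched juvenile 2 reached into the enriched range, and the difference was 0.83 (SE 0.222, limma adjusted p = 0.43). The other 3 probes differed by 0.85, 0.32 and -0.44, the last being beta-crystallin B3, near the background limit. Of 11 photoreceptor and retinoid probes 7 were higher, with a median of 0.20 that was 0.06 without enriched juvenile 1. Purpurin, a retinol-binding protein of the retina, differed by 0.80 (SE 0.284) and cone arrestin by 0.45 (SE 0.205). Within slide 2 purpurin differed by -0.115 and cone arrestin by 0.177.

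For the epithelial barrier, 20 of 30 probes were higher, with a median of 0.19. Without enriched juvenile 3 the median was 0.08 and 17 were higher. With all 10 juveniles, 7 were higher and 1 lower at an unadjusted p under 0.05, beside 4.16% and 5.96% over all probes. Claudin-like protein ZF-A89 (C035R139), from the family that seals tight junctions, differed by 0.72 (SE 0.243), with overlap. Protein-glutamine gamma-glutamyltransferase 5-like (C076R113), a transglutaminase, was above the Cy5 limit in 2 enriched juveniles only and differed by 1.15 (SE 0.384, limma adjusted p = 0.437), with unenriched juvenile 2 high. Of 29 transposable element probes 22 were higher, 3 at an unadjusted p under 0.05, beside 4.16% of all probes. Their median was 0.19 in X22, -0.64 in X11 and -0.01 in X35. In X22 it was -0.01 within slide 2 and ran from 0.08 to 0.26 when 1 juvenile was left out. Of the 29 probes, 28 were on the study's X11 list, so their X11 median was shaped by that selection.

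Immune and plasma transcripts were mixed. Of 80 immune probes 48 were lower and 32 higher, with a median of -0.12 (-0.25 within slide 1 and -0.02 within slide 2). At an unadjusted p under 0.05, 16 were lower and 2 higher, beside 5.96% and 4.16% over all probes. Among 10 plasma lipid and iron transport probes 7 were lower, led by transferrin. Apolipoprotein A-I (C176R119), the main protein of high-density lipoprotein, was 3.56 in unenriched juvenile 3 and between -4.47 and -1.08 in the other 9, and was above the Cy5 limit in 1 juvenile only, so no fold is given for it. Of 14 heat shock probes 9 were lower, 2 at an unadjusted p under 0.05, beside 5.96% of all probes, with a median of -0.16. That median ran from -0.32 without enriched juvenile 1 to -0.05 without enriched juvenile 5, and in the fit with a fixed slide term it was -0.05 with 0 probes at that level. Heat shock cognate 71 kDa (C169R048), a constitutive chaperone, was 0.04, -0.60, 1.12, -0.34 and -0.19 in the unenriched and -0.53, -0.39, -0.47, -0.90 and -1.19 in the enriched juveniles, again with unenriched juvenile 3 highest.

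Housekeeping groups lay near the median of all probes. List medians were -0.05 for 25 cytosolic ribosome probes, -0.09 for 13 mitochondrial ribosome probes, -0.01 for 50 respiratory chain probes, 0.01 for 19 proteasome probes and 0.02 for 32 splicing probes. Their smallest unadjusted p-values belonged, among others, to 40S ribosomal protein S25 (0.85, SE 0.302) and the proteasome subunit PSMD7 (0.62, SE 0.166) on the higher side and a cytochrome b-c1 complex subunit (-0.63, SE 0.187) on the lower side. The S25 difference was 1.06 within slide 1 and -0.01 within slide 2. Lists for extracellular matrix (median -0.11 over 35 probes), detoxification (0.08 over 19) and haemoglobin (0.12 over 4) had both directions, and in the matrix list 12 were higher and 23 lower.

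The next question was whether family X22 responded differently from the other families. Over all probes, 54% had the same sign in X22 as in X11 and 54.9% the same sign as in X35. Among the 2138 probes at an unadjusted p under 0.05 in X22 these shares were 56.6 and 60.1%, and among the 416 without overlap 55.5 and 61.1%. Probes are not independent of each other, and the families share the reference RNA, so these shares are a description. The 2922 probes that the study listed for X11 alone had a median of 0.07 in X22, with 1762 higher and 1160 lower. Over all probes 49.7% were higher in X22. The median of these probes was 0.05 in X35 and -0.45 in X11, where they were selected, so the X11 value is no neutral comparison.

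When the environment effect of X11 was subtracted from that of X22 in a fit of all 30 arrays, 119 probes (0.563%) passed the FDR in limma, 90 with a higher and 29 with a lower effect in X22. Of the 119, 105 had passed in X11 on its own, and 46 were at an unadjusted p under 0.05 in X22. The effects of the 2 families had the same sign at 6 of the 119 and opposite signs at the others. The effect was smaller in X22 at 106, with a median size of 0.37 in X22 and 0.80 in X11. The 119, and the named probes among them below, were selected for a large difference between these 2 effects. That selection favours opposite signs and a large effect in 1 family, so these counts are a description. Over all probes 54% had the same sign in X22 and X11. Each of the 10 juveniles of X22 moved this count when left out, from 16 without unenriched juvenile 2 to 373 without enriched juvenile 1, and 11 probes passed with slide as a fixed block.

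Among the named probes of this difference, effects that were more positive in X22 belonged mostly to probes that were lower with gravel in X11. Replication factor C subunit 3 (C132R101), part of the clamp loader of DNA replication, changed by 3.34 (SE 0.568, limma adjusted p = 0.0175) between families: it differed by 0.11 in X22 and by -3.23 in X11. In X11 it was 1.61 to 1.95 in the 5 unenriched and -2.93 to -0.62 in the 4 enriched juveniles measured, all of the latter under the Cy5 limit, and in X22 it was near the limit as well. The kinase PAK2-like (C011R090), which acts on the cytoskeleton, had a difference of 2.57 (SE 0.472, limma adjusted p = 0.0269), with 0.27 in X22 and -2.31 in X11. In X11 its probe was above the Cy5 limit in all 5 unenriched and in 0 enriched juveniles. Immunoglobulin mu heavy chain (C096R165), the chain of IgM, followed with 2.44 (SE 0.569, limma adjusted p = 0.0491), and tetraspanin-18 (C050R043), a membrane protein, with 2.15 (SE 0.518, limma adjusted p = 0.0498). Among enriched juveniles of X11, the IgM probe was above the Cy5 limit in 3 and tetraspanin-18 in 2. Over the alternatives, the call was lost in 1 of 20 for C132R101 and 4 of 20 for PAK2-like. It was lost in 11 of 21 for the IgM probe and 13 of 20 for tetraspanin-18.

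In the X22 juveniles the IgM probe was 0.07, 0.20, 0.40, -0.15 and 0.16 without gravel and -0.34, 1.14, 0.56, 0.88 and 2.94 with gravel. Enriched juvenile 5 was the high value and enriched juvenile 1 the low one, so the groups overlapped. The largest difference, 7.22 for catalase (C237R146), an enzyme that breaks down hydrogen peroxide, rested in X11 on 3 measured juveniles, all under the Cy5 limit (0.19 and 0.44 unenriched, -7.01 enriched), whereas X22 differed by -0.11. Over the alternatives the catalase difference ran from 2.46 with normexp to 8.91 with slide as a fixed block, and its limma adjusted p reached 0.095 in the log2 ratios deposited by the authors.

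Effects that were more negative in X22 belonged to probes that were higher with gravel in X11. The homeobox factor MSX1 (C184R005), a regulator of head and tooth development in mammals, was 0.52, 0.56, 0.47, 0.15 and 0.49 in the unenriched and 0.10, -0.36, 0.24, 0.15 and -0.49 in the enriched juveniles of X22. Unenriched juvenile 4 was low and lay under enriched juvenile 3, so the groups overlapped. It differed by -0.51 in X22 and 1.27 in X11, a difference between families of -1.78 (SE 0.427, limma adjusted p = 0.0496). The ammonium transporter Rh type C 1-like (C053R002), which carries ammonia across the gills of fish, differed by -0.67 in X22 and 1.29 in X11 (difference -1.96, SE 0.471, limma adjusted p = 0.0496). For MSX1 and for this transporter, the call was lost in 14 of 21 alternatives each.

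A probe named water dikinase 1 (C184R003) had a difference of -1.98 (SE 0.46, limma adjusted p = 0.0491), and cAMP-specific phosphodiesterase 7A (C216R004), which degrades the second messenger cAMP, one of -1.71 (SE 0.388, limma adjusted p = 0.0445). In X11 the phosphodiesterase probe was above the Cy5 limit in 0 unenriched and 3 enriched juveniles. The call was lost in 12 of 21 alternatives for water dikinase 1 and 12 of 20 for phosphodiesterase 7A. For DDX1 the difference was -3.41 (SE 0.677, limma adjusted p = 0.0305), but its probe was above the Cy5 limit in no juvenile of X11 and in only 2 of X22. Its call was lost in 6 of 20 alternatives. The X35 differences of these 10 probes ran from -0.70 to 0.05.

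**Figure D5:**
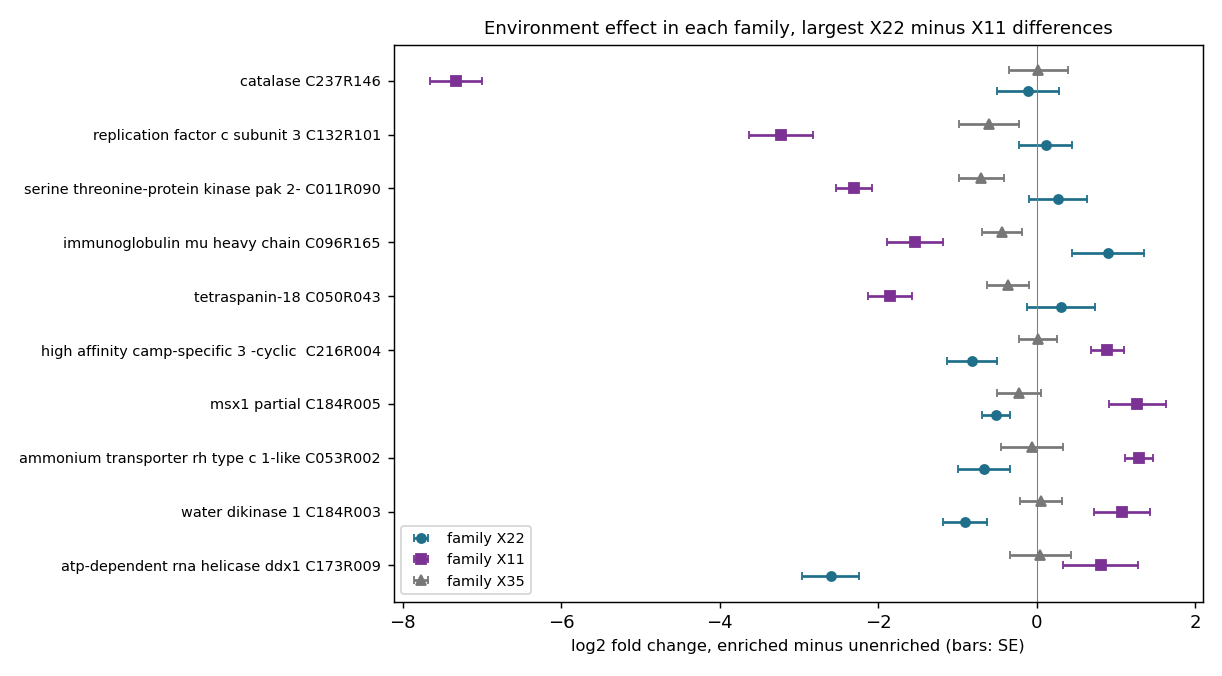
Log2 fold change between enriched and unenriched juveniles (x axis, bars SE) in families X22 (circles), X11 (squares) and X35 (triangles) for the 5 named probes with the most positive and the 5 with the most negative difference between X22 and X11. Effects in X11 lie from -7.32 to 1.29, and those in X22 lie within 1 of 0 except for DDX1 at -2.60.

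Against family X35, the other family with a farmed sire, 0 probes (0%) passed for the difference in effect in limma, with 1421 at an unadjusted p under 0.05 and a smallest adjusted p of 0.214. With slide as a fixed block 31 passed, and 0 or 1 passed when any one juvenile of X22 was left out. The difference in effect was above 1 on the log2 scale at 239 probes and below -1 at 434, so a count of 0 does not show that the families responded alike.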

How the data were processed

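The deposited intensity files hold, for each array, the median spot and local background brightness that the authors extracted with Imagene 9.0, with poor spots flagged and no normalization. The deposited table of log2 ratios was made by the authors with marray and LSimpute: they subtracted the background, took the log2 ratio of Cy5 to Cy3, fitted loess per array, dropped dim Cy3 spots and imputed gaps.

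The values used here were derived anew from the intensities in the same order but with no imputation: loess with span 0.4 and 5 iterations, flagged spots and spots with a Cy3 signal under the mean background plus 2 SD removed, and probes left out that were absent from 8 or more of 30 arrays. Of 43689 non-control spots 21136 remained; the authors' table of 21117 probes shares 21098, with a correlation of at least 0.9973 on every array. The common Cy3 reference was no sample of a group. The number of arrays limits the precision, and p-values measure the spread between juveniles of 1 container.

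Tests between environments used limma 3.58.1 under R 4.3.3, with moderated two-sided statistics from eBayes and p-values adjusted by Benjamini-Hochberg over all probes (FDR of 5%), on the 10 arrays of family X22, and differences between families in a fit of all 30 arrays. SAM was re-implemented with 100 permutations and run only on probes without missing values in X22. Where every Cy5 signal of 1 environment was under the limit, those signals were raised to it and a fold was taken from separately normalized channels. The other environment entered as measured, also where under the limit, so the fold is not a strict bound. It is open to dye bias since no dyes were exchanged, and a value above the measured fold was left out. The fits were tested on simulated data with 200 changed probes. Figures were drawn in Python 3.11.15 with matplotlib 3.10.9. Probes and gene lists were chosen with earlier results of these data known. Named are the probe past the FDR, the study's list for X22, the 12 largest differences each way among named probes that were detected and did not overlap, the 3 members of each list with the smallest p, the members of short lists, markers, and the 5 named probes each way in a family difference past the FDR. One probe of the study's list for X22 is not reported here. Alternatives changed the background correction, scaling, filters, values, blocks, weights, test and juveniles.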

Additional observations from a re-analysis of the deposited data

Results flagged for a closer look

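In 15 of 198 groups of 5 juveniles (7.58%), 1 juvenile lay far from its siblings. Chance gives about 1 in 20 for unselected, independent groups. The groups here were probes chosen in these data and lists over the same juveniles, so the share is a description. Unenriched juvenile 3 was high for fast-type myosin-binding protein C089R008 (1.06), USP28-like C165R018 (1.11) and cardiac alpha actin C153R037 (1.64), and its median deviation was 0.90 for the sarcomere and muscle list and -0.72 for the myelin and glia list. Enriched juvenile 1 was high for leucine-rich glioma-inactivated protein 1 C087R147 (1.75), and its median was 0.64 for the neuron and synapse list and 0.24 for the splicing list. Enriched juvenile 5 was low for coagulation factor VIII-like C166R008 (-1.74) and high for the lens list (0.71) and the photoreceptor and retinoid list (0.18). Unenriched juvenile 2 was high for sperm-associated antigen 5 C145R103 (1.75) and protein-glutamine gamma-glutamyltransferase 5-like C076R113 (0.30). Low values were seen for EH domain-binding protein 1-like protein 1 C200R070 in unenriched juvenile 5 (-0.22, siblings 0.14 to 0.28) and for MSX1 C184R005 in unenriched juvenile 4 (0.15, siblings 0.47 to 0.56).

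The effect of the environment differed between X22 and X11 at 119 probes in limma. The named differences, X22 minus X11 on the log2 scale, were 7.22 for catalase C237R146, 3.34 for replication factor C subunit 3 C132R101, 2.57 for PAK2-like C011R090, 2.44 for immunoglobulin mu heavy chain C096R165 and 2.15 for tetraspanin-18 C050R043. On the other side they were -1.71 for phosphodiesterase 7A C216R004, -1.78 for MSX1 C184R005, -1.96 for ammonium transporter Rh type C 1-like C053R002, -1.98 for water dikinase 1 C184R003 and -3.41 for DDX1 C173R009. Each of these named calls was lost in 1 or more alternatives.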

How the results depend on the processing

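The count of 1 probe past the FDR in X22 was 1 under normexp with closed-form parameters, a filter on dim Cy5 spots, the deposited log2 ratios, at least 4 arrays per environment, slide as a random block and array weights. It was 0 with scaling between arrays, without the filter on dim Cy3 spots, without unenriched juvenile 3 and enriched juveniles 1 and 5 together, and with limma's default normexp fit, 4 in a fit of all 30 arrays (complement receptor-like C211R110, CYP2M1 C204R103, transferrin C233R116 and CD5-like C260R032, without TIMP2) and 5 by SAM; the last normexp setting and the set of 3 juveniles were chosen after seeing the data. With slide as a fixed block the count was 1, but the probe was CYP2M1 C204R103 and the count at an unadjusted p under 0.05 was 1366 in place of 2138. Leaving out 1 juvenile gave 0 to 3 probes (3 without enriched juvenile 3, and 0 without any of unenriched juveniles 1 to 4 or enriched juveniles 1, 2, 4 and 5) and 1556 to 2796 at an unadjusted p under 0.05. The count for X22 minus X11, 119, was 50 with scaling, 79 without the Cy3 filter, 254 with the Cy5 filter, 11 and 75 with slide as a fixed and a random block, 1024 with array weights, 8 with only the 20 arrays of both families and fewer than 10 with limma's default normexp fit; leaving out 1 juvenile gave 16 to 373. A fixed slide block raised the count for X22 minus X35 from 0 to 31, and leaving out 1 juvenile gave 0 to 1 (1 without unenriched juvenile 3 and 1 without enriched juvenile 3). Replicate numbers did not pair the juveniles (correlations of same-numbered deviations -0.082 to 0.105, own number best in 2 of 5); with a replicate block, 0 probes passed in X22 and 2 for X22 minus X35. The difference of C066R007, -0.001, changed sign with slide as a random block (0.002), array weights (0.03) and without the 3 juveniles (0.089), was -0.391 within slide 1 and 0.483 within slide 2, and ran from -0.11 without enriched juvenile 3 to 0.087 without enriched juvenile 1 (above 0 also without unenriched juveniles 1, 2 or 5 or enriched juvenile 2). The difference of C135R154 ran from -0.276 without enriched juvenile 5 to 0.001 without enriched juvenile 2. The causes of these changes were not tested.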
